A study of Mus musculus with 22 samples.

Results

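Gene expression in cells labelled D-KO was compared with that in cells labelled E2-KO, 3 RNA-seq libraries of each, that is 6 of the 22 samples of the series and 6 of its 12 RNA-seq libraries. Both genotypes were made in E14, a mouse embryonic stem cell line, and E1 and E2 are the pair of enhancers of HoxB genes that the study deleted. E2-KO cells lack E2. D-KO is not spelled out in the labels and is read here as lacking both E1 and E2, so that, on this reading, both genotypes lack E2 and differ in E1. Before treatment the cells grew on gelatin in serum medium with LIF, a MEK inhibitor and a GSK inhibitor. All 6 libraries then had the same treatment: LIF and both inhibitors were withdrawn and 2 µM retinoic acid was given for 1 day. The 3 libraries of each genotype are labelled as biological replicates, and whether they come from separate cultures or clones is not stated, so the p-values below measure only the spread between these libraries. The positions of E1 and E2 are not stated either, and counts of genes do not cover them, so the deletions themselves were not checked.

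Hox genes encode homeodomain transcription factors that give cells their position along the head-to-tail axis. Retinoic acid, a vitamin A derivative, enters the nucleus, binds retinoic acid receptors (RARs) that sit on DNA as partners of retinoid X receptors (RXRs), and switches on the Hox clusters from the end that holds Hoxb1 and its counterparts. In embryonic stem cells the same signal, with LIF and the inhibitors gone, starts the exit from naive pluripotency towards epiblast-like and then lineage-committed states.

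The E2-KO libraries held 9101547 to 10433253 counts and the D-KO libraries 10137742 to 10593418. Pairs of replicates gave chi-square values of 2.20 to 4.01 per gene, where 1 would be counting error alone. All 10 stem cell markers were measured, with levels, in counts scaled to 1000000 per library (CPM), that summed to 6677 to 7167 in the E2-KO libraries and 5868 to 6071 in the D-KO libraries. Of 9 fibroblast markers, which would show feeder cells, 2 had 0 counts in all 6 libraries and the sum was 7.28 to 8.11 CPM in E2-KO against 4.94 to 6.03 CPM in D-KO. Of 15734 genes tested with edgeR's quasi-likelihood test, 5872 (37.3%) had an adjusted p below 0.05, and these are the genes called below. Of all genes tested, 19.0% (2986) rose and 18.3% (2886) fell in D-KO relative to E2-KO, with a median log2 fold change of -0.01. List counts below are to be read beside these shares. By at least 1 on the log2 scale, that is 2-fold, 566 genes (3.60%) differed: 250 (1.59%) rose and 316 (2.01%) fell. The levels of all 3 libraries of a genotype lay on one side of the other genotype's for 47.3% of genes. When the WT and E1-KO libraries were added to the fit, the common dispersion was 0.0265 in place of 0.00359 and 751 genes were called. With the E1-KO libraries alone added 6124 were called, so the loss of calls came with the WT libraries. Counts from that 12-library fit are given beside the lists with the most calls and, for the others, with the dependence on the processing.

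The differences also followed the GC content of the transcripts. Across 15315 genes the Spearman correlation of the log2 fold change with GC content was -0.37, given as a description. In 3 classes of 5105 genes by GC content, the median log2 fold change was 0.13 in the class of lowest GC, -0.02 in the middle and -0.17 in the class of highest GC. In the class of lowest GC 32.0% of genes rose and 7.15% fell, and in the class of highest GC 7.60% rose and 31.4% fell. Values from a fit with the trends of GC content and transcript length removed per library are therefore given beside most of the gene lists below. In that fit 19.4% of all genes rose and 14.1% fell. Scaled by library totals alone, the median of all genes was -0.08 and 37.2% of the called genes were higher in D-KO, against 50.9% with TMM scaling. The part of GC content in any single gene's difference was not tested.

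**Figure D1:**
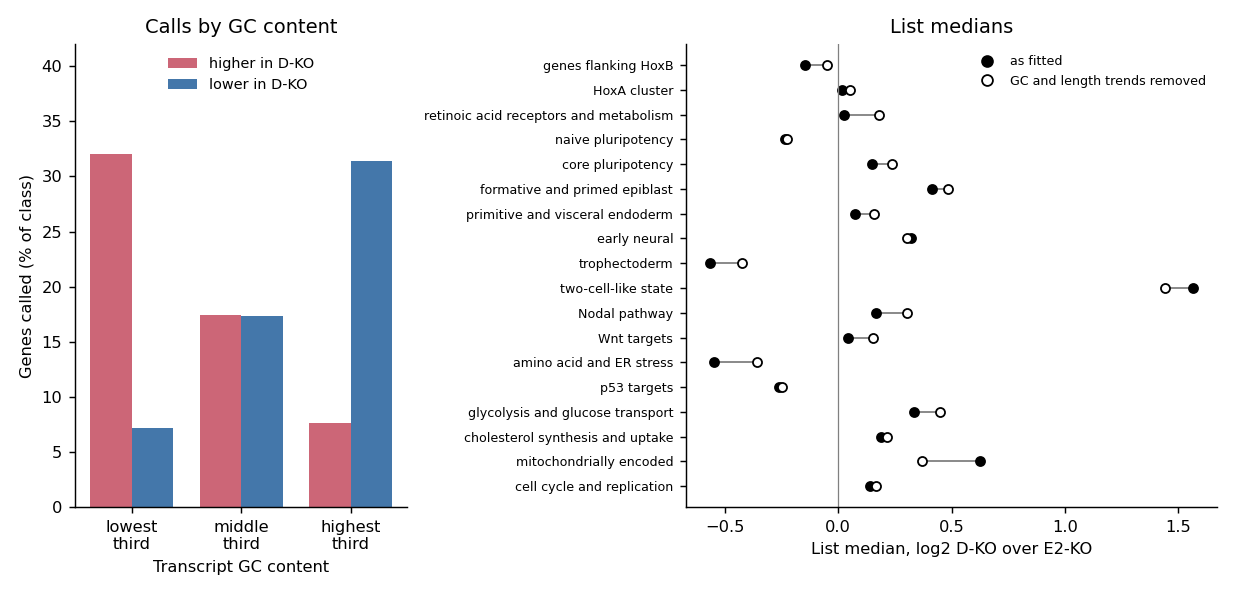
Left, genes called higher or lower in D-KO as a percentage of each of 3 classes of 5105 genes by transcript GC content. Right, the median log2 fold change of each gene list as fitted (filled) and with the GC and length trends removed (open); the share of genes that rose drops from 32.0% to 7.60% from low to high GC, while the medians of the 2-cell-like, stress and glycolysis lists keep their side of 0.

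Within the HoxB cluster, whose regulation the study is about, Hoxb2, Hoxb3 and Hoxb4 fell in D-KO relative to E2-KO, and the D-KO libraries held no read of Hoxb5 or Hoxb6. The cluster lies on chromosome 11 (GRCm38) from Hoxb13 at 96194316 to Hoxb1, which ends at 96368254. Of its 10 genes, 5 had enough counts to be tested, and 3 of these fell, whereas 18.3% of all genes did. Hoxb2, Hoxb3 and Hoxb4 passed the minimum through the E2-KO libraries, where they are higher, so the count of 3 in 5 is no measure of how often HoxB genes differ. Without D-KO library 3, 5 HoxB genes were called.

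Hoxb4 headed the falls. The 250 bases before its annotated start (chr11:96318017-96318266, plus strand, RefSeq GRCm38.p6) are printed because the retinoic acid response of HoxB genes is known to run through RAR and RXR binding. Capitals mark the 1 match, on either strand, to AGGTCA, the half-site that these receptors recognise, which here lies on the minus strand 81 bases before the start.
Hoxb4: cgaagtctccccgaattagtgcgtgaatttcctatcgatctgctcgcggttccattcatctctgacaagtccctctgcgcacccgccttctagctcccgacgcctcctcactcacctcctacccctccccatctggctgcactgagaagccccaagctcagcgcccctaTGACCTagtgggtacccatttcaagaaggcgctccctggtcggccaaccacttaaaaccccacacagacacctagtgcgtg
Such a half-site is common: 15.8% of 27025 genes with a window of the same length hold a match on either strand. Of the HoxB genes, Hoxb1, Hoxb4 and Hoxb8 have a window in the table, and 1 of these 3 holds a match. A match is a string of letters and does not show that a receptor binds there.

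Hoxb4 had 41, 35 and 39 counts in E2-KO libraries 1 to 3 and 1, 4 and 1 in D-KO libraries 1 to 3. Every D-KO library lay far below every E2-KO library. In TMM-normalised CPM this was 3.91 ± 0.419 (SD, n = 3) in E2-KO and 0.201 ± 0.176 in D-KO (log2 fold change -4.21 ± 0.65 SE, adjusted p = 1.58e-08). Means are given ± SD (n = 3) and log2 fold changes ± SE, also in the parentheses that follow. Hoxb3, whose gene spans that of Hoxb4, had 14, 18 and 12 counts in E2-KO and 1, 0 and 3 in D-KO (log2 fold change -3.37 ± 0.89 SE, adjusted p = 0.000180). Hoxb2, a regulator of hindbrain segments, had 14, 17 and 30 counts in E2-KO and 4, 6 and 4 in D-KO (log2 fold change -2.11 ± 0.52 SE, adjusted p = 0.000599). Neither gene's groups overlapped. These 3 falls were nearly as large with the GC and length trends removed, at -4.04, -3.23 and -1.96 for Hoxb4, Hoxb3 and Hoxb2. In bulk libraries, fewer cells that express a gene and less RNA per cell cannot be told apart.

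Hoxb5, Hoxb6, Hoxb7, Hoxb8 and Hoxb1 had too few counts to enter the test. Hoxb5 had 8, 10 and 11 counts in E2-KO and 0 in each D-KO library. Against a floor of 3 counts over the group, 0.0996 CPM in D-KO, it was at least 9.86-fold lower in D-KO, and in a fit of all genes with no minimum its adjusted p was 1.85e-05. Hoxb6 had 1, 3 and 5 counts in E2-KO and 0 in each D-KO library, at least 3.06-fold lower against the same floor, with an adjusted p of 0.0554 in that fit. Both genes were thus undetected in D-KO at this depth. Hoxb7 had 9, 7 and 2 counts against 1, 1 and 1, a log2 ratio of totals of -2.61 (95% counting interval -5.02 to -0.84). Hoxb8 had 6, 3 and 6 counts against 0, 3 and 1, a log2 ratio of -1.94 (-3.98 to -0.28). Hoxb7's groups did not overlap, and the groups of Hoxb8 met at 3 counts. Hoxb1, the first of the cluster to respond to retinoic acid in normal development, had 3, 11 and 11 counts in E2-KO and 3, 4 and 9 in D-KO, with overlapping groups and a log2 ratio of -0.67 (-1.68 to 0.29). Such floors and intervals cover counting error only.

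Hoxb9 and Hoxb13 lie at the other end of the cluster. Hoxb9 stood at 3.75, 2.60 and 3.50 CPM in E2-KO and 1.51, 1.31 and 2.82 CPM in D-KO, with the highest D-KO library above the lowest E2-KO library. Its log2 fold change of -0.79 ± 0.32 SE missed the threshold (adjusted p = 0.0503), and it passed without D-KO library 3, at -1.21 (adjusted p = 0.0104), and without E2-KO library 2 (adjusted p = 0.0411). With no library left out, Hoxb9 also passed with the E1-KO libraries added (adjusted p = 0.0274) and with a replicate block (0.0364). The same held under scaling by library totals (0.0336) and with a minimum of 1 CPM in 3 libraries (0.049). Hoxb13, which retinoic acid does not switch on at this stage, had 9, 14 and 15 counts in E2-KO and 7, 8 and 6 in D-KO (-0.87 ± 0.48, adjusted p = 0.148). The E2-KO libraries all lay above the D-KO libraries there, but the test did not pass. Whether the difference changes along the cluster was not tested.

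**Figure D2:**
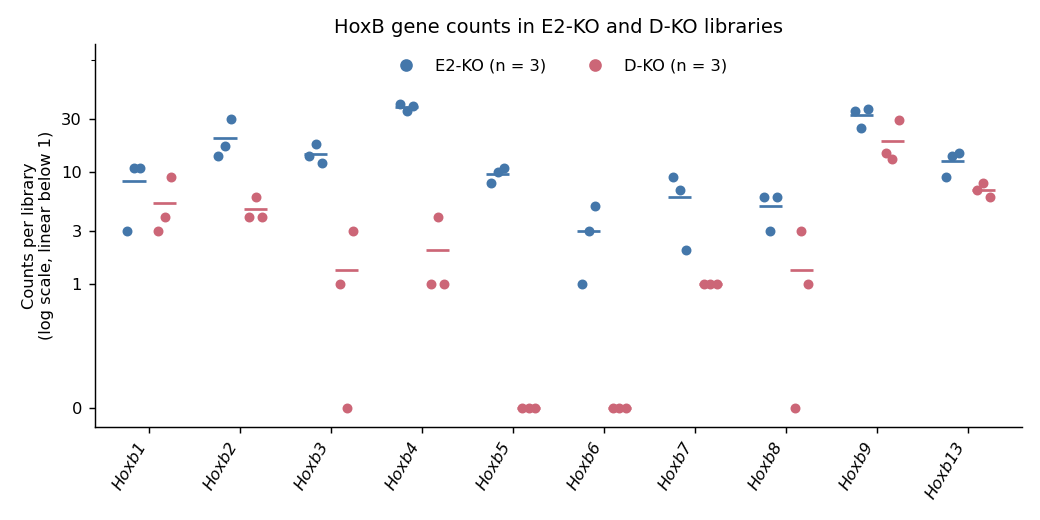
Read counts of the 10 HoxB genes in each library of E2-KO (blue) and D-KO (red), with the mean as a bar, on a log axis that is linear below 1. Hoxb4 lies at 35 to 41 counts in the E2-KO libraries and 1 to 4 in the D-KO libraries, Hoxb5 and Hoxb6 are at 0 in all 3 D-KO libraries, and Hoxb9 and Hoxb1 overlap between the genotypes.

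Among the non-coding RNAs of the cluster, 2 of 3 tested fell, of which Hoxb3os passed the minimum through the E2-KO libraries. Hoxb3os, whose gene lies antisense within the span of Hoxb3 and reaches into that of Hoxb2, stood at 3.85, 3.01 and 3.79 CPM in E2-KO and 0.202, 0.202 and 0.583 CPM in D-KO (-3.37 ± 0.53, adjusted p = 2.37e-07). As the strand setting of the counting is not given, its reads and those of both neighbours cannot be separated. Gm53, a non-coding transcript between Hoxb13 and Hoxb9 (chr11:96251660-96264484), stood at 22.4, 22.8 and 23.2 CPM in E2-KO and 10.6, 10.00 and 12.7 CPM in D-KO. Its groups did not overlap and it fell by close to 2-fold (log2 fold change -1.03 ± 0.13, adjusted p = 6.03e-08). Mir196a-1 was not called (-0.52 ± 0.37, adjusted p = 0.282), and Hoxb5os had 1, 2 and 4 counts in E2-KO and 0 in each D-KO library.

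The genes on either side of the cluster were called about as often as genes at large. Of 25 tested, 3 rose and 7 fell, beside 37.3% of all genes called in either direction, with a median log2 fold change of -0.15. With the GC and length trends removed the median was -0.05 and 3 rose and 3 fell. B4galnt2, a glycosyltransferase gene, stood at 5.46, 6.44 and 5.02 CPM in E2-KO and 2.12, 2.22 and 1.94 CPM in D-KO (-1.42 ± 0.25, adjusted p = 2.63e-05), and the groups were well apart. Nfe2l1, a transcription factor that maintains proteasome genes, stood at 348, 355 and 339 CPM against 245, 235 and 253 CPM (-0.51 ± 0.04, adjusted p = 1.94e-11). Kpnb1, which encodes importin beta, rose (0.32 ± 0.03, adjusted p = 2.83e-09), and so did Tbx21, from 1.11 ± 0.236 to 2.67 ± 0.746 CPM (1.25 ± 0.38, adjusted p = 0.00714), a call that was lost without D-KO library 2 (adjusted p = 0.0679).

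The HoxA cluster, on another chromosome and also responsive to retinoic acid, had few called genes. Of 9 tested HoxA genes 1 rose and 1 fell, beside 37.3% of all genes called in either direction. The median log2 fold change was 0.01, and 0.05 without the GC and length trends. It was below 0 when scaled by library totals and with no minimum of counts. The same held without D-KO library 2 or 3, and without E2-KO library 1, 2 or 3. Hoxa5 stood at 31.7, 30.5 and 33.8 CPM in E2-KO and 27.2, 33.9 and 35.9 CPM in D-KO (0.02 ± 0.10, adjusted p = 0.914), and its groups overlapped. Hoxa3 fell from 15.7 ± 0.669 to 11.0 ± 0.796 CPM (-0.52 ± 0.13, adjusted p = 0.00225), and Hoxa4 was called higher (0.40 ± 0.16, adjusted p = 0.0409) but not under 10 of the 16 other settings, DESeq2 (adjusted p = 0.101) and the fits without D-KO library 1, 2 or 3 or E2-KO library 2 or 3 among them (adjusted p = 0.0573 to 0.158). Of 3 tested HoxC and HoxD genes 2 fell: Hoxc13, at 3.21, 4.37 and 3.88 CPM against 2.02, 1.31 and 1.17 CPM (-1.35 ± 0.32, adjusted p = 0.000874), and Hoxc4, at 13, 15 and 17 counts against 5, 1 and 5 (-2.02 ± 0.59, adjusted p = 0.00308). Both genes have low levels, and Hoxc4 in D-KO is near the limit of detection. Hoxc4 passed the minimum through the E2-KO libraries, where it is higher. The count of 2 in 3, beside 18.3% of all genes that fell, is thus no measure of how often HoxC and HoxD genes differ.

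Hox proteins bind DNA together with TALE homeodomain partners of the Pbx, Meis and Pknox families, and of 9 tested partners 2 rose and 1 fell (median 0.08, and 0.08 without the GC and length trends). Meis2 rose slightly (0.21 ± 0.07, adjusted p = 0.0231) and Pbx4 fell (-0.54 ± 0.16, adjusted p = 0.00814), and neither was called with the GC and length trends removed (adjusted p = 0.335 and 0.0893). The Meis2 call was also lost without D-KO library 2 or E2-KO library 1 (adjusted p = 0.127 and 0.101), and that of Pbx4 without D-KO library 3 or E2-KO library 1 (adjusted p = 0.0670 and 0.0633).

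Genes that sense, carry and break down retinoic acid changed in both directions. Of 16 tested 6 rose and 3 fell, and the list median was 0.03 (0.18 without the GC and length trends, and below 0 with library totals alone or without D-KO library 2). The count that fell was 1 in DESeq2, with those trends removed, and without D-KO library 1, E2-KO library 1 or E2-KO library 2. Among the receptors, Rarb, itself a direct target of retinoic acid, stood at 11.6, 14.8 and 14.6 CPM in E2-KO and 16.9, 18.5 and 23.3 CPM in D-KO (0.52 ± 0.14, adjusted p = 0.00254). The lowest D-KO library lay above the highest E2-KO library, and the call was lost without D-KO library 3 (adjusted p = 0.0503). Rara rose too (0.27 ± 0.07, adjusted p = 0.00293), whereas Rarg, the most highly expressed of the 3 RAR genes here in CPM, was not called (-0.03 ± 0.04, adjusted p = 0.558) but was called higher without the GC and length trends (0.21, adjusted p = 2.90e-05), and Rxrb fell (-0.38 ± 0.08, adjusted p = 0.000420), a call that was lost without the GC trend (-0.10, adjusted p = 0.350). Of the binding proteins, Crabp2, which carries retinoic acid to the nucleus, rose from 2.26 ± 0.215 to 5.23 ± 1.17 CPM (1.20 ± 0.26, adjusted p = 0.000375). Crabp1, a related binding protein, fell (-0.77 ± 0.28, adjusted p = 0.0255), but not without D-KO library 1, D-KO library 2, E2-KO library 1 or E2-KO library 2 (adjusted p = 0.110, 0.0690, 0.0888 and 0.0739) and in DESeq2 (adjusted p = 0.0717).

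Cyp26a1, the enzyme that clears retinoic acid and is strongly induced by it, stood at 88.5, 84.3 and 74.3 CPM in E2-KO and 95.8, 96.7 and 99.2 CPM in D-KO (0.24 ± 0.06, adjusted p = 0.00273). The D-KO libraries were all higher, by a small margin. Of 12 tested genes that retinoic acid induces outside the Hox clusters, 4 rose and 3 fell (median 0.09). Gbx2, which marks the early hindbrain and epiblast, rose from 26.1 ± 3.67 to 45.2 ± 1.38 CPM (0.79 ± 0.09, adjusted p = 2.34e-08), and Nrip1, a corepressor of nuclear receptors, from 51.8 ± 3.32 to 84.9 ± 2.57 CPM (0.71 ± 0.07, adjusted p = 2.51e-10). Stra8, a gene named for its response to retinoic acid, rose less (0.35 ± 0.05, adjusted p = 8.88e-07). Cdx1, which activates posterior Hox genes, fell from 82.7 ± 2.93 to 54.8 ± 6.61 CPM (-0.59 ± 0.07, adjusted p = 7.22e-08), and Tgm2, a transglutaminase, fell as well (-0.81 ± 0.15, adjusted p = 4.42e-05).

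**Figure D3:**
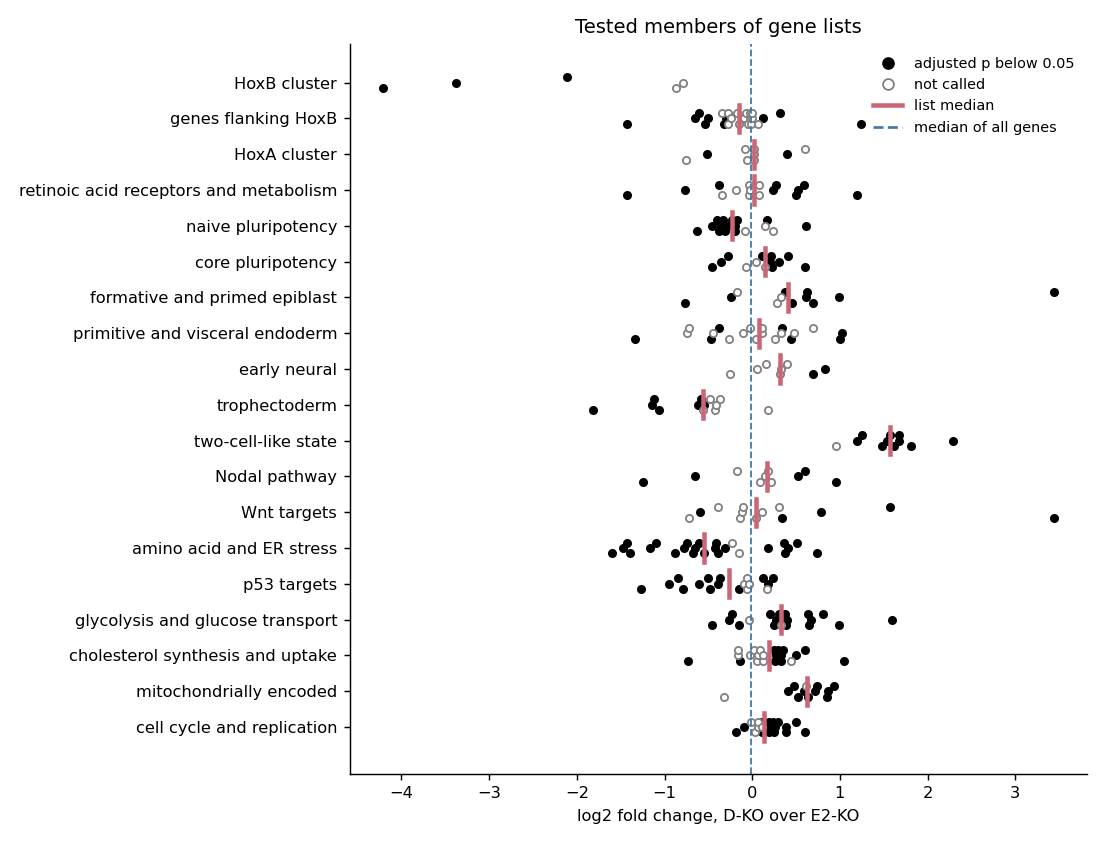
Log2 fold changes, D-KO over E2-KO, of the tested members of 19 gene lists, filled where the adjusted p is below 0.05, with each list's median as a bar (none for HoxB, of which 5 of 10 genes were tested) and the median of all genes, -0.01, as a dashed line. The 3 called HoxB genes lie at -2.11 or lower, the 2-cell-like list lies to the right, and the stress list splits into 17 genes that fell and 6 that rose.

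Most of the largest rises and falls came from genes outside the lists described here. Upp1, which encodes the uridine-degrading enzyme uridine phosphorylase, stood at 124, 118 and 128 CPM in E2-KO and 456, 450.4 and 430.2 CPM in D-KO, a gap many times the spread within either genotype (1.85 ± 0.04, adjusted p = 2.53e-25). Enpp3, a nucleotide-cleaving enzyme of the cell surface, stood at 7.39, 6.76 and 9.75 against 30.3, 31.3 and 29.5 CPM (1.92 ± 0.13, adjusted p = 2.02e-13). For both, the D-KO libraries were tightly grouped far above the E2-KO libraries. Ebf1, a transcription factor best known from B cells, rose from 5.25 ± 0.964 to 18.9 ± 2.65 CPM (1.85 ± 0.16). Others among the 12 largest rises were Usp17la (2.29), Edn2 (2.25), Rpph1 (2.02), Ms4a14 (1.93), Ccno (1.93), Usp17lb (1.92), Myadml2os (1.91) and Kif11.

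Kif11, the kinesin that separates spindle poles, differs from these in its spread. Its counts were 107, 123 and 166 in E2-KO and 577, 282 and 970 in D-KO, so that D-KO library 2 lies closer to the E2-KO libraries than to the other D-KO libraries. Its call (2.17 ± 0.59, adjusted p = 0.0472) was lost under 10 of the other settings, among them the fits that left out any 1 library other than D-KO library 2 (adjusted p = 0.0729 to 0.148).

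On the falling side, Cited4, a partner of the coactivators CBP and p300, stood at 99.4, 104 and 92.4 CPM in E2-KO and 27.6, 31.1 and 29.7 CPM in D-KO (-1.74 ± 0.07, adjusted p = 9.54e-19). Slc13a5, a citrate transporter of the plasma membrane, stood at 11.8, 11.0 and 12.5 against 2.52, 2.22 and 3.01 CPM (-2.18 ± 0.20, adjusted p = 1.33e-10). Both genes had tight groups with a wide gap. Loxl4, an enzyme that cross-links extracellular matrix, fell from 7.26 ± 0.742 to 1.43 ± 0.774 CPM (-2.33 ± 0.30), and Acot2, a mitochondrial acyl-CoA thioesterase, from 7.02 ± 1.69 to 1.43 ± 0.164 CPM (-2.29 ± 0.28). Hoxb4 and Hoxb3os head the 12 largest falls of the ranking above, and the others were Trim66 (-2.30), Plekhg6 (-1.90), Hspb2 (-1.88), Elk3 (-1.80), Cbfa2t3 (-1.80) and Mvb12b (-1.69).

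Genes of naive pluripotency were mostly lower in D-KO, by small amounts. Of 17 tested 2 rose and 12 fell, with a median log2 fold change of -0.23 (-0.23 without the GC and length trends). In the 12-library fit 1 rose and 1 fell, and without D-KO library 1 the rises were 1. Nanog stood at 833, 852 and 906 CPM in E2-KO and 680.5, 703 and 670.0 CPM in D-KO (-0.34 ± 0.04, adjusted p = 1.38e-08). Klf4, a reprogramming factor, stood at 188, 179.6 and 174 against 140.0, 133 and 136 CPM (-0.40 ± 0.05, adjusted p = 6.21e-08). In both cases every D-KO library was below every E2-KO library. Tfcp2l1 (-0.38 ± 0.04, adjusted p = 3.81e-09), Tbx3 (-0.36 ± 0.04, adjusted p = 2.97e-09) and Klf5 (-0.46 ± 0.05, adjusted p = 7.57e-09), which sustain the naive network, also fell. Fbxo15, a reporter gene of pluripotent cells, went the other way, from 61.4 ± 1.59 to 93.8 ± 6.08 CPM (0.61 ± 0.06, adjusted p = 2.80e-09).

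Genes shared by all pluripotent states were divided: 7 rose and 3 fell of 13 tested (median 0.15, and 0.24 without the GC and length trends; 0.10 without D-KO library 2). Pou5f1, which encodes OCT4, stood at 1604, 1527 and 1414 CPM in E2-KO and 1188, 1216 and 1149.8 CPM in D-KO (-0.35 ± 0.04, adjusted p = 1.59e-08), and Sox2 fell by less (-0.28 ± 0.04, adjusted p = 7.61e-06). Tdgf1, the Nodal coreceptor Cripto, stood at 284, 293 and 308 against 443, 448 and 450.4 CPM (0.60 ± 0.04, adjusted p = 1.80e-13). The OCT4 and Cripto genes thus moved in opposite directions with no overlap in either. Lin28a, a blocker of let-7 processing, and Dppa2 rose (0.31 ± 0.04 and 0.41 ± 0.04).

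Genes of the formative and primed epiblast, the states that follow the naive state, were higher more often than lower: 7 rose and 2 fell of 12 tested (median 0.41, and 0.48 without the GC and length trends), with 3 higher in the 12-library fit. The de novo DNA methyltransferase gene Dnmt3b stood at 216, 221 and 219.8 CPM in E2-KO and 293, 305 and 303 CPM in D-KO (0.46 ± 0.04, adjusted p = 2.08e-10). Zic2 rose from 31.8 ± 2.27 to 49.0 ± 5.42 CPM (0.63 ± 0.09, adjusted p = 5.88e-07) and Sox3 from 6.58 ± 0.798 to 10.6 ± 0.563 CPM (0.69 ± 0.16, adjusted p = 0.00114). Otx2, a regulator of the primed state, was low but higher in all D-KO libraries, at 1.07, 1.46 and 2.27 CPM against 3.23, 3.33 and 3.11 CPM (0.99 ± 0.33, adjusted p = 0.0148), a call that was lost without E2-KO library 1 or E2-KO library 2 (adjusted p = 0.0820 and 0.0524). Lef1, a nuclear partner of beta-catenin, had 0, 2 and 3 counts in E2-KO and 12, 26 and 21 in D-KO. It was close to undetected in E2-KO and passed the minimum through D-KO, and its fitted log2 fold change of 3.44 ± 0.80 (adjusted p = 4.15e-05) rests on 5 counts in E2-KO. Foxd3, which helps dissolve the naive network, fell from 66.9 ± 1.74 to 39.5 ± 5.84 CPM (-0.76 ± 0.08, adjusted p = 1.14e-08).

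Of 20 tested genes of primitive and visceral endoderm 4 rose and 3 fell (median 0.07, and 0.16 without the GC and length trends), a share near the 37.3% of all genes called. Without E2-KO library 2 or 3, 5 of them fell, and without E2-KO library 2 the median was -0.02. Lrp2, the endocytic receptor megalin, stood at 58.2, 62.5 and 63.5 CPM in E2-KO and 121, 128 and 126 CPM in D-KO (1.02 ± 0.06, adjusted p = 6.48e-15), and its partner Cubn rose from 3.47 ± 0.816 to 7.01 ± 0.132 CPM (1.01 ± 0.22, adjusted p = 0.000352). The lineage regulators were less changed: Gata6 rose (0.34 ± 0.08, adjusted p = 0.000702), and Gata4 was not called (-0.27 ± 0.20). Fst, which binds activin, fell from 8.62 ± 1.29 to 3.37 ± 1.15 CPM (-1.34 ± 0.22, adjusted p = 1.11e-05), and the basement membrane collagens Col4a1 and Col4a2 fell by less (-0.37 ± 0.06 and -0.47 ± 0.07).

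Of 8 tested early neural genes 2 rose (median 0.32, and 0.30 without the GC and length trends, 0.14 without E2-KO library 1 and 0.20 without D-KO library 3). Tubb3, the neuronal beta-tubulin, stood at 37.6, 34.6 and 38.1 CPM in E2-KO and 56.4, 66.9 and 55.2 CPM in D-KO (0.69 ± 0.08, adjusted p = 2.28e-08), and Nes, a filament of neural progenitors, at 7.60, 8.52 and 9.18 against 10.9, 15.4 and 18.7 CPM (0.83 ± 0.17, adjusted p = 0.000201). Both rose with no overlap, while the neural fate regulator Sox1 was called only without D-KO library 2 or without the GC and length trends (0.31 ± 0.19, adjusted p = 0.200). Of 7 tested genes of primitive streak and mesoderm 1 rose and 2 fell (median -0.41, and -0.21 without the GC and length trends and -0.24 without E2-KO library 1): Eomes (-0.58 ± 0.13) and Pdgfrb (-0.55 ± 0.12) fell and Kdr rose (0.81 ± 0.28), the last a call that was lost in DESeq2 (adjusted p = 0.0523) and without D-KO library 1, D-KO library 2 or E2-KO library 2 (adjusted p = 0.0594, 0.0804 and 0.114).

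More trophectoderm genes were called lower than higher in D-KO. Of 13 tested 7 fell, beside 18.3% of all genes. Eomes, named above as a gene that fell, is in this list as well as in that of primitive streak and mesoderm. The median log2 fold change was -0.57 (-0.42 without the GC and length trends), and 4 fell in the 12-library fit. The genes that fell include 4 keratins, of which Krt7 passed the minimum through the E2-KO libraries, where it is higher. Krt8 stood at 77.1, 86.5 and 80.0 CPM in E2-KO and 39.6, 39.8 and 37.4 CPM in D-KO (-1.06 ± 0.07, adjusted p = 1.06e-13). Its filament partner Krt18 stood at 27.8, 25.3 and 32.8 against 10.4, 13.9 and 14.7 CPM (-1.14 ± 0.13, adjusted p = 1.73e-08). Every D-KO library held less of both keratins than any E2-KO library. Krt19 fell from 6.18 ± 1.39 to 2.86 ± 0.0576 CPM (-1.12 ± 0.24) and Krt7 from 2.36 ± 0.167 to 0.671 ± 0.822 CPM (-1.81 ± 0.54), the Krt7 call being lost without D-KO library 2 (adjusted p = 0.0513) and in DESeq2 (adjusted p = 0.140). Tead4, the transcription factor that starts the trophectoderm programme, fell from 41.0 ± 1.43 to 26.8 ± 3.19 CPM (-0.61 ± 0.09, adjusted p = 2.06e-06), whereas Gata3 was called only without D-KO library 2 (-0.36 ± 0.23). The cell junction genes Cldn4 and Cldn6, which epithelia share with trophectoderm, are not in this list and fell too (-0.87 ± 0.07 and -0.91 ± 0.12). In the epithelial and mesenchymal list 3 rose and 4 fell of 17 tested, with a median of 0.01.

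Genes of the 2-cell-like state, a rare condition in which stem cells switch on genes of the early embryo's genome activation, were higher in D-KO. Of 11 tested 10 rose, and the remaining gene, Tmem92, was not called (0.96 ± 0.41, adjusted p = 0.0598). Some of them, Usp17la among others, passed the minimum through the D-KO libraries, where they are higher, so neither the count nor the median measures how often genes of the list differ. The median log2 fold change was 1.57 (1.44 without the GC and length trends), and in the 12-library fit 7 rose. Zscan4a stood at 3.96, 5.09 and 4.92 CPM in E2-KO and 15.5, 15.5 and 12.1 CPM in D-KO (1.62 ± 0.17, adjusted p = 4.22e-09). Zscan4d stood at 3.32, 4.16 and 5.40 against 14.0, 13.0 and 11.5 CPM (1.57 ± 0.19, adjusted p = 2.63e-08), and Zscan4c at 5.14, 2.49 and 4.83 against 12.7, 13.0 and 14.1 CPM (1.67 ± 0.20, adjusted p = 2.25e-08). All D-KO libraries lay above all E2-KO libraries for these 3 genes. The list holds 2 families of near-identical copies, Zscan4 and the Usp17l deubiquitinases, between which reads can be split, so its members are not separate measurements and the level of a single copy is uncertain. The summed level of 5 of its markers (Zscan4c, Zscan4d, Zscan4f, Zfp352 and Tcstv3) was 9.67 to 13.5 CPM in the E2-KO libraries and 32.5 to 34.2 CPM in the D-KO libraries. Most of this sum came from the Zscan4 copies. In CPM scaled over all 12 RNA-seq libraries, Zfp352 stood at 0.21, 0.21 and 0.38 in E2-KO and 0.81, 0.81 and 1.07 in D-KO. Tcstv3 did not share the rise. On the same scale it stood at 0.32, 0.21 and 0.19 CPM in E2-KO and 0, 0 and 0.39 CPM in D-KO.

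**Figure D4:**
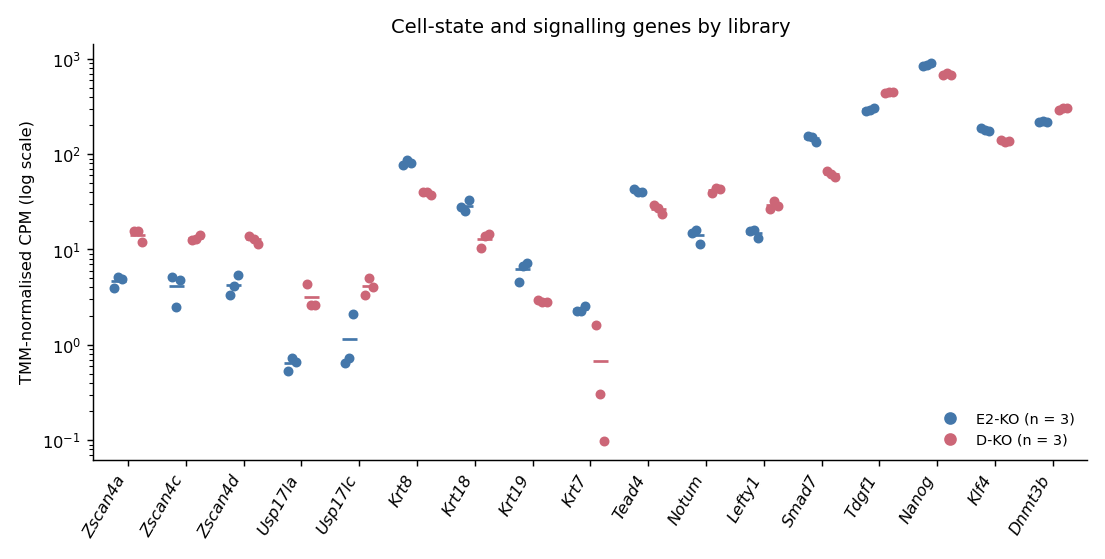
TMM-normalised CPM on a log axis in each library of E2-KO (blue) and D-KO (red) for genes of the 2-cell-like state, keratins and other trophectoderm genes, signalling genes and pluripotency genes, with the mean as a bar. The Zscan4 genes, Usp17l genes, Notum, Lefty1, Tdgf1 and Dnmt3b sit higher in D-KO; the keratins, Tead4, Smad7, Nanog and Klf4 sit lower.

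Signalling pathways showed single strong changes within lists of mixed direction. In the Nodal pathway, which patterns the epiblast, 3 rose and 2 fell of 10 tested (median 0.16, and 9 called without the GC and length trends). The ligand gene Nodal was not called (0.09 ± 0.06) but rose without the GC and length trends (0.27), while its feedback inhibitor Lefty1 stood at 15.6, 15.9 and 13.3 CPM in E2-KO and 26.3, 32.3 and 28.6 CPM in D-KO (0.96 ± 0.11, adjusted p = 4.05e-08). The coreceptor gene Tdgf1 rose, as given above, and the receptor gene Acvr1b fell (-0.65 ± 0.07, adjusted p = 8.96e-09). Smad7, an intracellular inhibitor of TGF-beta receptors, stood at 156, 151 and 135 against 66.4, 61.9 and 57.4 CPM (-1.25 ± 0.06, adjusted p = 5.88e-16). Its highest D-KO library was below its lowest E2-KO library by a wide margin.

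Among Wnt targets 4 rose and 1 fell of 13 tested (median 0.04, 0.15 without the GC and length trends and below 0 with library totals alone or without D-KO library 2 or 3), with 2 lower without E2-KO library 3. The share called in this list, and in the BMP list below, is near the 37.3% of all genes called. Notum, a secreted enzyme that inactivates Wnt proteins, stood at 14.8, 16.1 and 11.5 CPM in E2-KO and 38.7, 44.0 and 43.2 CPM in D-KO (1.57 ± 0.11, adjusted p = 3.44e-13). Ccnd1, which encodes cyclin D1, stood at 38.9, 33.8 and 31.6 against 62.2, 58.5 and 59.2 CPM (0.79 ± 0.08, adjusted p = 1.22e-09). Lef1, described above, and the feedback gene Axin2 (0.34 ± 0.11, adjusted p = 0.0182) also rose, and Cdx1 was the 1 target that fell. The Axin2 call was lost without D-KO library 2, D-KO library 3 or E2-KO library 1 (adjusted p = 0.0908, 0.0737 and 0.0920) and under scaling by library totals (adjusted p = 0.0557). For BMP signalling 3 rose and 1 fell of 12 tested: the ligand gene Bmp7 fell from 12.3 ± 1.25 to 5.80 ± 1.60 CPM (-1.08 ± 0.18), Bmp4 rose (0.31 ± 0.08), and the target genes Id2 and Id3 rose (0.69 ± 0.15 and 0.48 ± 0.11). For the FGF and ERK response 4 rose and 4 fell of 17 tested, with Myc up (0.42 ± 0.06) and Phlda1 and Ier2 down (-0.42 ± 0.06 and -0.41 ± 0.05). The medians of these last lists, -0.01 and -0.03, changed sign when the GC and length trends were removed.

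Stress genes split into a part that fell and a part that rose. When amino acids run short or the endoplasmic reticulum (ER) is overloaded, kinases slow translation and the transcription factor ATF4 switches on genes for amino acid synthesis and transport. Overload of the ER also raises its chaperones through other factors. Of 25 tested genes of both arms 6 rose and 17 fell, with a median of -0.55. With the GC and length trends removed the median was -0.36, and 5 rose and 17 fell. In the 12-library fit 3 rose and 9 fell. The genes that fell belong to the ATF4 arm and the 6 that rose to the ER arm: Hspa5, Hsp90b1, Calr, Pdia4, Dnajb9 and Xbp1.

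Promoter windows of 3 genes of the ATF4 arm are printed because ATF4 and its partners bind a composite element, searched here as TGATGNAA on both strands of the 250 bases before the start (RefSeq GRCm38.p6). Capitals mark the match. The Asns window (chr6:7693210-7693459, minus strand) holds it 23 bases before the start, the Chac1 window (chr2:119350992-119351241, plus strand) 193 bases before, and the Atf3 window (chr1:191183334-191183583, minus strand) 110 bases before.
Asns: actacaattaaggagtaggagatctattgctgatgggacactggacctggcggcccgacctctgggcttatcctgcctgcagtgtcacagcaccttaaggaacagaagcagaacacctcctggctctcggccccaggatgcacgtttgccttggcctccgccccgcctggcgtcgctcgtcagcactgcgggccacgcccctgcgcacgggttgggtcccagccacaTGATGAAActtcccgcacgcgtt
Chac1: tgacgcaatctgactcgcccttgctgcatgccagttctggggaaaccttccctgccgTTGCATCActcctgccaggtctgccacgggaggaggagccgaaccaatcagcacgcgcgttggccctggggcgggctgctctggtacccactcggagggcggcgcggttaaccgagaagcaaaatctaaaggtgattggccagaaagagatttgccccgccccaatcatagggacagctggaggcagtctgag
Atf3: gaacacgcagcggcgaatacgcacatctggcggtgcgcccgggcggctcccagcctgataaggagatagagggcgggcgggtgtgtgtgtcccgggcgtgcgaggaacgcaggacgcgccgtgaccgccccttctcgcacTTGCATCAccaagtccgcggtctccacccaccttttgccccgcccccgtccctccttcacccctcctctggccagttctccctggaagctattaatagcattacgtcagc
In Asns the match reads along the gene's strand, and in Chac1 and Atf3 on the opposite strand, so that it appears as its reverse complement. Of 23 genes of the list with a window, 6 (26.1%) hold a match, against 3.91% of 27025 genes: these 3, Slc7a11, Vldlr and Herpud1. Herpud1 was not called (-0.23 ± 0.10, adjusted p = 0.0643) and the other 5 fell. Several genes that fell, Trib3, Atf4 and Ddit3 among them, hold no match in this window, which says only that these letters are not there. A match in turn does not show that ATF4 binds there. As the list was drawn up from genes of these stress responses, its share of matches says nothing about D-KO against E2-KO.

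Trib3, a pseudokinase that ATF4 induces, stood at 104, 97.5 and 96.3 CPM in E2-KO and 34.5, 40.2 and 36.0 CPM in D-KO (-1.43 ± 0.07, adjusted p = 8.99e-17). Chac1, which degrades glutathione, stood at 45.1, 46.0 and 42.5 against 15.9, 17.1 and 15.2 CPM (-1.47 ± 0.09, adjusted p = 7.21e-14). Asns, which makes asparagine, stood at 615, 594 and 602 against 371, 353 and 357 CPM (-0.74 ± 0.04, adjusted p = 3.70e-16). For all 3 genes the groups were far apart. Atf4 itself stood at 442, 445 and 445 against 280.4, 284 and 270.4 CPM (-0.68 ± 0.04, adjusted p = 6.48e-15), and the factors downstream of it, Ddit3 and Atf3, fell from 43.9 ± 2.66 to 20.5 ± 1.22 CPM (-1.10 ± 0.09) and from 10.2 ± 0.854 to 3.89 ± 0.174 CPM (-1.39 ± 0.19). Ddit4, an inhibitor of mTORC1, fell from 94.4 ± 11.1 to 42.1 ± 1.40 CPM (-1.16 ± 0.07). The serine synthesis genes Phgdh and Psat1 fell (-0.61 ± 0.04 and -0.66 ± 0.04), as did the amino acid transporter genes Slc7a5, Slc3a2 and Slc7a11 (-0.55 ± 0.04, -0.42 ± 0.04 and -0.88 ± 0.25). The lipoprotein receptor gene Vldlr had the largest fall of the list, from 9.12 ± 0.916 to 2.99 ± 0.380 CPM (-1.60 ± 0.21).

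Against these falls, the ER chaperone genes rose. Hspa5, which encodes the chaperone BiP, stood at 554, 553 and 568 CPM in E2-KO and 779, 801 and 802 CPM in D-KO (0.51 ± 0.04, adjusted p = 5.44e-13). Hsp90b1, the ER form of HSP90, stood at 406, 426 and 472 against 676, 729 and 776 CPM (0.74 ± 0.06, adjusted p = 5.87e-07). The D-KO libraries were higher throughout. Calr, Pdia4 and Dnajb9, which bind or fold ER proteins, rose by less (0.40 ± 0.04, 0.38 ± 0.05 and 0.36 ± 0.11), and Dnajb9 was not called without the GC and length trends (adjusted p = 0.172). Its call was also lost without D-KO library 2 or D-KO library 3 (adjusted p = 0.0580 and 0.0733), and that of Xbp1 (0.18 ± 0.06) without D-KO library 2 (adjusted p = 0.0849) and under scaling by library totals (adjusted p = 0.116).

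**Figure D5:**
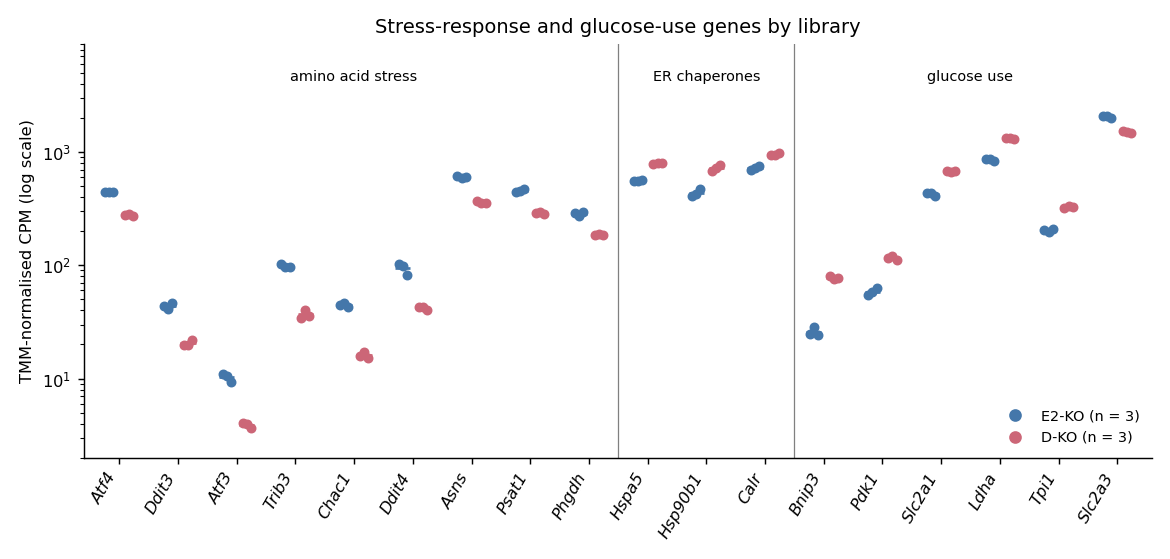
TMM-normalised CPM on a log axis in each library of E2-KO (blue) and D-KO (red) for 9 genes of the amino acid stress arm, 3 ER chaperone genes and 6 genes of glucose use. All 9 stress genes lie lower and the 3 chaperone genes higher in D-KO, and of the glucose genes Slc2a3 alone lies lower.

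Targets of p53, several of which other stresses also induce, were lower more often than higher: 3 rose and 10 fell of 18 tested, with a median of -0.26 (-0.25 without the GC and length trends). The count that rose was 1 without D-KO library 1 or 3, and no rise was called without E2-KO library 2 or with library totals alone. In the 12-library fit 4 fell. Gdf15, a secreted stress factor, stood at 32.4, 37.5 and 36.3 CPM in E2-KO and 15.5, 14.6 and 14.0 CPM in D-KO (-1.27 ± 0.10, adjusted p = 1.92e-11), and Btg2, an antiproliferative factor, at 31.7, 32.0 and 30.9 against 16.7, 16.9 and 15.3 CPM (-0.95 ± 0.10, adjusted p = 6.13e-09). Neither overlapped. Cdkn1a, which encodes p21, fell by less (-0.48 ± 0.11, adjusted p = 0.000511). The list shares Sesn2 with the stress list.

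Genes of glycolysis and glucose transport were mostly higher in D-KO. Of 20 tested 14 rose and 4 fell, with a median of 0.33 (0.45 without the GC and length trends). In the 12-library fit 8 rose and 1 fell. Bnip3, a mitophagy receptor that low oxygen induces, stood at 24.9, 28.3 and 24.0 CPM in E2-KO and 80.2, 75.6 and 77.3 CPM in D-KO (1.59 ± 0.08, adjusted p = 7.13e-17). Pdk1, which keeps pyruvate out of the mitochondria, stood at 54.4, 57.7 and 62.6 against 116, 121 and 111 CPM (0.99 ± 0.06, adjusted p = 5.93e-14). Neither gene's groups came near each other. The glucose transporter gene Slc2a1 stood at 439, 437 and 409 against 674, 665 and 679 CPM (0.65 ± 0.04, adjusted p = 8.22e-15), and the enzyme genes Ldha and Tpi1 rose by a similar amount (0.63 ± 0.03 and 0.67 ± 0.04). Slc2a3, another glucose transporter gene, went the other way, from 2045 ± 59.1 to 1494 ± 30.5 CPM (-0.45 ± 0.03, adjusted p = 2.73e-12), as did Pfkp (-0.15 ± 0.04). Egln3, a low-oxygen sensor that is itself induced by low oxygen, rose from 6.26 ± 1.24 to 11.0 ± 1.33 CPM (0.81 ± 0.17).

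Of 22 tested genes of cholesterol synthesis and uptake 10 rose and 2 fell (median 0.19, and 0.22 without the GC and length trends), with 3 higher in the 12-library fit and 1 lower without D-KO library 2. Idi1, an isomerase of the isoprenoid route, stood at 22.2, 25.7 and 28.4 CPM in E2-KO and 54.5, 49.7 and 53.8 CPM in D-KO (1.05 ± 0.09, adjusted p = 2.58e-11), well apart. Sqle, which oxidises squalene, rose by less (0.50 ± 0.06, adjusted p = 4.90e-08). Pmvk, an enzyme of the same route, fell (-0.74 ± 0.12).

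Transcripts encoded by the mitochondrial genome were higher in D-KO. They made up 1.63% to 1.81% of counts in the E2-KO libraries and 2.53% to 2.69% in the D-KO libraries, and of 12 tested genes 10 rose, with a median of 0.63 that dropped to 0.37 without the GC and length trends. In the 12-library fit 3 of them rose. mt-Co1, a subunit of cytochrome oxidase, stood at 4949.6, 4998 and 5666 CPM in E2-KO and 8608, 8337 and 8696 CPM in D-KO (0.72 ± 0.04, adjusted p = 5.41e-11), and mt-Nd1, a subunit of complex I, at 2990.4, 3009.5 and 3317 against 5042, 5076 and 5401 CPM (0.74 ± 0.04, adjusted p = 5.08e-15). These genes are read from shared long transcripts and are not independent measurements. The part of this rise in other differences was not tested.

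Chromatin regulators changed by small amounts. Of 15 tested genes for CTCF, cohesin and other looping factors 9 rose (median 0.22, and 0.10 without the GC and length trends, where 7 rose and 1 fell). Ctcf stood at 175, 181 and 191 CPM in E2-KO and 215, 233 and 237 CPM in D-KO (0.32 ± 0.05, adjusted p = 2.03e-06), and the cohesin subunit gene Rad21 at 432, 443 and 496 against 580.5, 604 and 624 CPM (0.40 ± 0.04, adjusted p = 3.23e-08). Both were modestly higher in every D-KO library. Of 28 tested Polycomb genes, whose products keep Hox genes silent, 9 rose and 7 fell (median -0.09, and -0.04 without the GC and length trends): Kdm2b, which brings Polycomb to CpG islands, rose from 207 ± 7.28 to 327 ± 13.4 CPM (0.66 ± 0.04, adjusted p = 1.54e-13), Ezh2, the methyltransferase, rose by less (0.30 ± 0.06), and Cbx6 and Cbx7, which read the mark, fell (-0.63 ± 0.07 and -0.39 ± 0.05). Of 10 tested genes of DNA methylation and its removal 6 rose and 3 fell (median 0.15, and 0.19 without the GC and length trends), with Dnmt3l up (0.37 ± 0.04) and Zfp57, a guardian of imprints, down (-0.35 ± 0.04).

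Of 22 tested imprinted genes 7 rose and 3 fell (median 0.15, and 0.18 without the GC and length trends), beside 37.3% of all genes called. Mest stood at 78.9, 78.3 and 80.5 CPM in E2-KO and 145, 141 and 129.7 CPM in D-KO (0.81 ± 0.06, adjusted p = 5.32e-13). Cdkn1c, a cell cycle inhibitor, stood at 28.6, 24.2 and 25.6 against 53.2, 49.7 and 49.6 CPM (0.96 ± 0.08, adjusted p = 6.94e-11). Grb10, a growth-restraining adaptor, stood at 49.1, 51.4 and 55.7 against 22.9, 24.8 and 26.9 CPM (-1.06 ± 0.08, adjusted p = 9.89e-12). Mest and Cdkn1c rose and Grb10 fell, each without overlap. Peg10 also rose (0.54 ± 0.04).

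The remaining lists moved little or were hardly expressed. Of 25 tested genes of the cell cycle and replication 18 rose and 2 fell, with a median of 0.14 (0.17 without the GC and length trends): Mcm6 (0.39 ± 0.04), Cdc6 (0.38 ± 0.06) and Top2a (0.29 ± 0.04) were among those that rose. Scaled by library totals alone, 13 of the list were called in place of 20, and with all 12 libraries 1 was. The count that fell was 1 without D-KO library 1 or E2-KO library 2, and no fall was called in DESeq2 or without D-KO library 2 or E2-KO library 1. Of 17 tested epithelial and mesenchymal genes 3 rose and 4 fell, beside 37.3% of all genes called (median 0.01, below 0 with library totals alone). Vim was among those that rose (0.50 ± 0.05). Of 13 tested genes of antigen presentation 5 fell (median -0.29), beside 18.3% of all genes. With the GC and length trends removed 2 fell (median -0.16), beside 14.1%. Without D-KO library 1 or E2-KO library 1 the count was 2, and it was 3 in DESeq2 and without D-KO library 2 or 3 or E2-KO library 2. Tap1, which carries peptides into the ER, fell in both (-0.68 ± 0.15 and -0.50). Of 12 germline genes 3 fell (median -0.13, and -0.22 without the GC and length trends, and between -0.22 and -0.06 when 1 library was left out), Taf7l (-0.53 ± 0.13), Mael (-0.41 ± 0.13) and Ddx4 (-0.34 ± 0.13), of which the Mael call was lost without D-KO library 3 (adjusted p = 0.0998) and the Ddx4 call without D-KO library 2 or E2-KO library 2 or 3 (adjusted p = 0.0863 to 0.200). Of 6 tested genes of the fibroblast list 2 rose and 1 fell (median -0.24, and -0.04 without the GC and length trends, -0.12 without D-KO library 1, -0.43 without D-KO library 3 and -0.15 without E2-KO library 1), the 2 being Vim and Fn1, which stem cells express as well. All 8 Y-linked genes searched had 0 counts in all 6 libraries. In the fit of all 12 libraries 4 of them had enough counts to be tested, but not with the E1-KO libraries alone added. The counts of these 4 genes thus came with the WT libraries, and the reason was not tested.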

How the data were processed

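RNA was measured by RNA-seq in 3 D-KO and 3 E2-KO libraries, which were grouped by the labels. The authors deposited a raw count per gene symbol, 52535 symbols in each table. HISAT2 2.1.0, HTSeq 0.9.1 and the build mm10 are listed, with no role or order, per the submitters' processing notes. Neither the gene annotation nor the strand setting is given in the sources used here. Using edgeR 4.0.16 under R 4.3.3 (filterByExpr, TMM, robust quasi-likelihood fit), 15734 genes were tested, and calls have a Benjamini-Hochberg adjusted p below 0.05. The fit was tested on simulated data: of 100 genes changed by 0.5 on the log2 scale 65% were recovered, and of 100 changed by 1, 93%. The changed genes were drawn from those above a minimum average count per library. These rates therefore do not cover genes of low count, such as Hoxb2 and Hoxb3. The share of genes changed was also far below the 37.3% called in the data, which makes the adjustment of p stricter. The rates thus do not give the share of real changes recovered here. Nothing in the labels says that the replicate numbers pair the samples, so the main fit has no replicate block. GC content and length came from GENCODE M21, which 48108 symbols matched, and gene positions from RefSeq, which 35099 matched. Promoter windows also came from RefSeq and were available for 27025 genes. The members and the lists were chosen with earlier results of these data known. By rule, the text names the HoxB genes, the 12 largest rises and falls among genes with a log2 change of at least 1, an average log2 CPM of at least 1, groups that do not overlap and no symbol of a predicted locus, and, from every list, as many as 3 genes of lowest adjusted p and those that went against most of the list. Other genes were named after their values were seen, and some genes are not reported here. Floors are 3 counts over a group, intervals are exact at 95%, and 16 other settings were tried. The 4C and ChIP samples were not analysed here.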

Additional observations from a re-analysis of the deposited data

How the results depend on the processing

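In place of 5872 genes called and 566 called with a log2 change of at least 1, the fit of all 12 libraries called 751 and 267; the other settings that keep all 6 libraries called 4754 (DESeq2) to 6252 and 468 to 710. Leaving out each replicate in turn gave 4786 to 5919 and 546 to 654. The number of HoxB genes called, 3, was 3 to 5 when a replicate was left out, with 5 without D-KO replicate 3 alone, and 3 or 4 under the other settings. Deviations from the group means of libraries with the same number correlated at -0.02, 0.08 and 0.12 over 10620 genes, and not every library correlated best with its own number. The fit with a replicate block called 6252 genes, 583 by at least 1, and 4 HoxB genes, and with the GC and length trends removed too, 5411, 495 and 3. Of 180 genes chosen by the rule or named in the text, 79 lost their call in the fit of all 12 libraries and 10 or fewer under each other setting. Among lists whose count in the fit of all 12 libraries is not given above, edgeR called 1 gene each of the TALE, core pluripotency, early neural, BMP, DNA methylation and HoxC and HoxD lists, 2 each of the flanking, Polycomb and epithelial lists, 3 each of the imprinted, Wnt and retinoic acid induced lists, and 4 each of the endoderm and Nodal lists. It called 0 of the retinoic acid receptor, FGF and germline lists (3, 3 and 2 at an unadjusted p below 0.05), of the mesoderm, fibroblast and cohesin lists (4, 3 and 4) and of the HoxA and antigen lists (1 each). Rarg, not called at -0.03, was called at 0.21 with the GC and length trends removed, with or without the block. The library totals, 9101547 counts or more, leave Hoxb1 and Hoxb5 to Hoxb8 below the minimum for a test.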

Other observations

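Levels of 5 genes are given here in the WT and E1-KO libraries too, which the comparison above does not use, and the genes were chosen after their values were seen. In CPM scaled over all 12 RNA-seq libraries, Upp1, Trib3 and Bnip3 had levels in D-KO that lay closer to WT than to E1-KO, and levels in E2-KO closer to E1-KO than to WT. Upp1 stood at 318, 357 and 447 CPM in the WT libraries, 117, 104 and 114 CPM in the E1-KO libraries, 124, 118 and 128 CPM in the E2-KO libraries and 456, 451 and 431 CPM in the D-KO libraries. Trib3, of the amino acid stress arm, stood at 28.1, 39.6 and 21.03 CPM in the WT libraries, 75.3, 76.9 and 79.3 CPM in the E1-KO libraries, 104, 97.8 and 96.5 CPM in the E2-KO libraries and 34.5, 40.3 and 36.0 CPM in the D-KO libraries. Bnip3, of the glucose list, stood at 62.5 to 82.5 CPM in WT, 19.2 to 21.9 CPM in E1-KO, 25.0, 28.4 and 24.1 CPM in E2-KO and 80.3, 75.8 and 77.4 CPM in D-KO.

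Notum and Zscan4d had other orders. Notum stood at 13.2, 25.1 and 8.55 CPM in the WT libraries, 13.3, 16.4 and 15.3 CPM in the E1-KO libraries, 14.8, 16.2 and 11.6 CPM in the E2-KO libraries and 38.8, 44.1 and 43.2 CPM in the D-KO libraries, where it was highest. Zscan4d stood at 85.2, 58.1 and 52.0 CPM in the WT libraries, 5.12, 2.88 and 3.53 CPM in the E1-KO libraries, 3.32, 4.17 and 5.41 CPM in the E2-KO libraries and 14.0, 13.1 and 11.5 CPM in the D-KO libraries, so that its level in D-KO is above E2-KO and below WT. No test was run on these orders.

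Csmd3, a large gene for a membrane protein with CUB and sushi domains (chr15:47580638-48792558, GRCm38), had 0 counts in every WT and E1-KO library. It had 177, 216 and 210 counts in E2-KO and 388, 348 and 363 in D-KO (log2 fold change 0.84 ± 0.10 SE, adjusted p = 2.63e-08, edgeR's quasi-likelihood test). No other gene had 0 counts in all WT and E1-KO libraries and at least 100 in total in E2-KO and in D-KO.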
